A study of Mus musculus with 8 samples.

Results

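The voltage-gated sodium channel genes examined in the fetal hearts were 7 in number, namely those of 4 alpha subunits, *Scn1a*, *Scn3a*, *Scn4a* and *Scn10a*, and of 3 beta subunits, *Scn2b*, *Scn3b* and *Scn4b*. They were taken by symbol from the deposited table, in which all 7 were found, with 20 of its 51414 transcript rows. For each gene, the row with the highest average over both genotypes gives its values, and the other rows are described separately. Hearts of 4 *Dio3*+/+ and 4 *Dio3*-/- fetuses on a C57BL/6J background were sequenced as total RNA depleted of ribosomal transcripts, 1 heart per fetus. *Dio3* encodes the type 3 deiodinase, the enzyme that inactivates thyroid hormones, and *Dio3*-/- fetuses lack it in every tissue, so that an effect inside the heart and an effect of the hormone in the circulation cannot be told apart. Series text describes the fetuses as male. All sample titles give E13.5, but the age field gives E18.5 for 2 of the 4 *Dio3*-/- hearts, and the methods of the study name a slightly older age for all hearts.

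A voltage-gated sodium channel is formed by an alpha subunit, which makes the pore and senses the voltage, and by beta subunits, small proteins with a single membrane span and an immunoglobulin-like domain outside the cell. The current they carry starts the action potential, in heart muscle as in nerve and skeletal muscle, and sets how fast excitation spreads through the chambers. The alpha subunits examined here are better known from other tissues, namely the brain for *Scn1a* and *Scn3a*, skeletal muscle for *Scn4a* and sensory neurons for *Scn10a*.

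The table gives the authors' mean for each genotype, read here as RPKM (a read number scaled to transcript length and library size), and the coefficient of variation (CV), the SD between the hearts divided by their mean. Both are rounded to 0.01. It has no values for single hearts. From a mean and an SD over 4 hearts it follows, however, that no heart lies more than 1.5 SD from the mean, and these limits were used to decide whether hearts of the genotypes could overlap. The depth of each library cannot be read from these values. The methods of the study give a range of aligned reads per sample and an average of mapped reads. Differences were tested with limma on log2(RPKM + 0.5), with Benjamini-Hochberg adjustment over all rows, once over the 32703 rows above 1 RPKM in at least 1 genotype and once over the 49226 rows above 0, since most of the sodium channel genes lie below 1 RPKM. These log2 differences understate the change of low genes. As the hearts were used whole, fewer cells of a type and less RNA per cell cannot be told apart in any of the values. The deleted gene itself was too low to check the labels, with a *Dio3* mean of 0.35 RPKM (CV 1.23) in *Dio3*+/+ hearts against 0.13 RPKM (0.76) in *Dio3*-/- hearts and an adjusted *P* value of 0.589 by limma. The 7 markers of heart muscle were all present, from 24.2 RPKM for *Ryr2* to 4778 RPKM for *Actc1* in *Dio3*+/+ hearts, and their summed means were 7778 and 9198 RPKM in *Dio3*+/+ and *Dio3*-/- hearts. Of these markers 6 had a higher mean in *Dio3*-/- hearts, where 54.5% of all genes above 0 were higher. By limma above 1 RPKM 2 of them passed the test, where 2.29% of all genes passed. These were *Myh6* (460 and 959 RPKM, adjusted *P* = 0.0013) and *Ryr2* (24.2 and 36.6 RPKM, adjusted *P* = 0.023), neither of which passed with Welch's test over rows above 0 (adjusted *P* of 0.072 and 0.177). The part of heart muscle content in the values of the sodium channel genes was not tested.

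*Scn4b* rose in *Dio3*-/- hearts and was the only one of the 7 genes to pass the test. Of the genes with a mean above 0, 0.794% passed (adjusted *P* under 0.05 by limma, in either direction) and 0.677% were higher in *Dio3*-/- hearts. Among the 7 sodium channel genes, that was 1, against 2 with an unadjusted *P* value under 0.05, a share of 14% over all genes. In their highest rows 3 genes had a higher mean in *Dio3*-/- hearts and 4 had a lower one, where 54.5% of all genes were higher. The median log2 difference was −0.05 over the 7 genes and 0.02 over all genes. Above 1 RPKM, where 2.29% of genes passed, *Scn10a* and *Scn2b* were tested and neither passed, so that limma gave 0 of 2 genes there. At an unadjusted *P* value under 0.05 it was 1 of them, *Scn10a*, and 19.7% of all genes. Welch's test calculated from the summaries also gave 0.

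**Figure D1:**
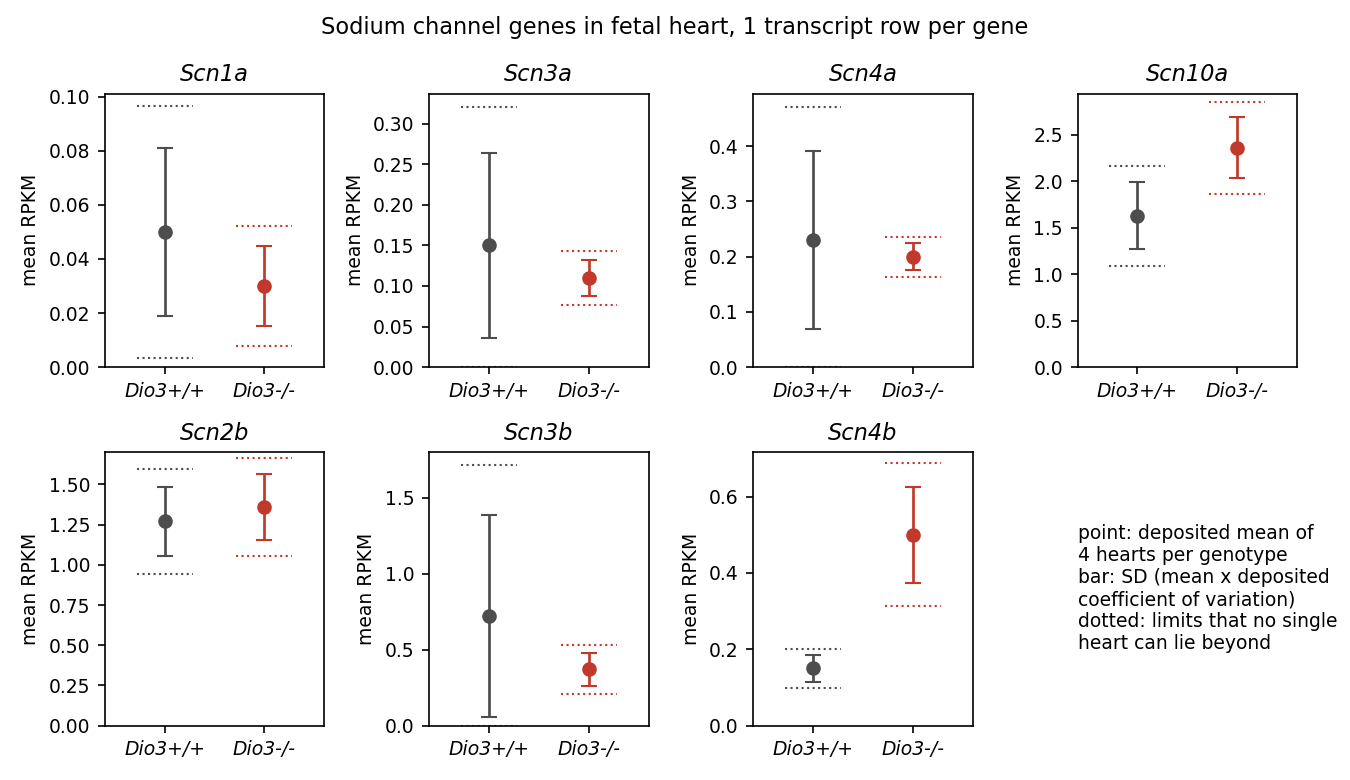
Deposited mean RPKM of each sodium channel gene in *Dio3*+/+ (grey) and *Dio3*-/- (red) hearts, with the SD between 4 hearts as bars and dotted lines at 1.5 SD from the mean, the limits for a single heart (lower limits end at 0). The limits of the genotypes are apart for *Scn4b* alone, between 0.202 and 0.313 RPKM.

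*Scn4b* encodes a beta subunit that is joined to the alpha subunit by a disulfide bond, and whose intracellular tail can enter and block the open pore in neurons. It rose from a mean of 0.15 RPKM (CV 0.23) in *Dio3*+/+ to 0.50 RPKM (0.25) in *Dio3*-/- hearts. No *Dio3*+/+ heart can have been above 0.202 RPKM and no *Dio3*-/- heart below 0.313 RPKM. The hearts therefore did not overlap, and this held when every mean and CV was moved to its least favorable rounding limit. It holds for all 4 *Dio3*-/- hearts whatever their age field says. Hearts that could not overlap and were higher in *Dio3*-/- fetuses were found for 3.12% of the genes above 0, and for 2.17% after the rounding limits.

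The ratio of the *Scn4b* means was 3.33, and rounding of the means alone allows 3.19 to 3.48. On the log2(RPKM + 0.5) scale the difference was 0.62 (standard error 0.09, 95% confidence interval 0.41 to 0.83), with an adjusted *P* value of 0.020 by limma over all rows above 0. Without a pseudocount, an alternative added after the data were seen, the log2 ratio was 1.74 (standard error 0.28, 95% confidence interval 1.11 to 2.36, adjusted *P* = 0.022 by limma). Its call did not hold with Welch's test from the same summaries, which gave an unadjusted *P* of 0.0086 and an adjusted *P* of 0.248, and which passed 3 of all 24817 genes (0.0121%). Among 22590 genes with a mean above 0 in both genotypes, 223 had a higher ratio than *Scn4b*. Of these, 67 were among the 4373 genes that, like *Scn4b*, averaged between 0.1 and 1 RPKM.

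Being below 1 RPKM in both genotypes, *Scn4b* was a minor transcript even after its rise. By the deposited means it made up 7.01% of the sum of the 3 beta subunit genes examined in *Dio3*+/+ and 22.4% in *Dio3*-/- hearts. This sum does not hold every beta subunit gene of the family. The table does not allow an error for these shares.

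Next to *Scn4b* on chromosome 9, with no other protein-coding gene between them, lies *Scn2b*, the gene of another beta subunit that binds through a disulfide bond. *Scn2b* had a mean of 1.27 RPKM (CV 0.17) in *Dio3*+/+ hearts against 1.36 RPKM (0.15) in *Dio3*-/- hearts. The limits for single hearts overlapped, with *Dio3*+/+ hearts no higher than 1.59 RPKM and *Dio3*-/- hearts no lower than 1.05 RPKM. The log2 difference was 0.07 (standard error 0.12) with an adjusted *P* of 0.807 by limma above 1 RPKM, and its 95% confidence interval over rows above 0 was −0.20 to 0.34. A change in *Scn2b* as large as the one in *Scn4b* on that scale lies outside this interval. The difference between the changes of the neighbors was not tested, because both come from the same hearts and their covariance is not in the table.

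The promoters of the neighbors are printed here because the genes lie side by side and only *Scn4b* passed the test. They come from RefSeq (build GRCm38.p6) and run 5′ to 3′ on the strand of the gene, from 250 bases before to 50 bases after its start. An entry was found for 5 of the 7 genes. Capitals would mark AGGTCA, the half-site that thyroid hormone receptors bind, searched on both strands, and the sequences below hold none. *Scn4b* is at chr9:45138374-45138673, plus strand, and *Scn2b* at chr9:45117626-45117925, plus strand. The third, *Scn10a*, the highest of the 7 genes, is at chr9:119718983-119719282, minus strand.
Scn4b: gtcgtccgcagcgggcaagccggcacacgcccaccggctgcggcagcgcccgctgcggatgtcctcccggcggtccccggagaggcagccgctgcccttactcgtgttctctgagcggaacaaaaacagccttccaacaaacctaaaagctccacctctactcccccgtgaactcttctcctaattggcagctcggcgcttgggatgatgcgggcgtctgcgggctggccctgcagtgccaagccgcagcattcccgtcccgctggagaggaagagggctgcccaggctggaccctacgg
Scn2b: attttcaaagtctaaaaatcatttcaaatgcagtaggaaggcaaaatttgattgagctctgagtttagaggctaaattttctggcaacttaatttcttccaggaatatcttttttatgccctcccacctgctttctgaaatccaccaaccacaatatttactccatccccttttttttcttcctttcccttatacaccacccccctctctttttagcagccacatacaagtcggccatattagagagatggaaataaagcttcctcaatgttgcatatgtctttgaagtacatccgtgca
Scn10a: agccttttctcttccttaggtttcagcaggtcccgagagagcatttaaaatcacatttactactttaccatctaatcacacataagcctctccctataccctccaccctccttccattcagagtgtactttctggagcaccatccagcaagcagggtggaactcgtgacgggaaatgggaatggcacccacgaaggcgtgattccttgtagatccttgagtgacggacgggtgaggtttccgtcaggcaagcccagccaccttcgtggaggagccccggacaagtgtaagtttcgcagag
The *Scn4b* window is rich in G and C, at 66.3% with 26 CpG dinucleotides, against 38.3% with 2 CpG dinucleotides for *Scn2b* and a median of 52.7% over all promoters. Of the 5 windows only that of *Scn1a* holds AGGTCA, once on the strand of the gene, and none holds the direct repeat of this half-site with any 4 bases between its copies. Over all 32851 promoters of the same length, 16.3% hold the half-site and 0.0152% the repeat. These matches describe letters only, and say nothing about binding there or elsewhere.

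*Scn3b* encodes a beta subunit that binds without a covalent bond. It had the widest spread of the 7 genes between *Dio3*+/+ hearts, with a mean of 0.72 RPKM and a CV of 0.92, against 0.37 RPKM and 0.29 in *Dio3*-/- hearts. A CV of 0.92 over 4 hearts means that the highest *Dio3*+/+ heart held at least 44.5% of their sum, where 25% is an even share. The genotypes may overlap over their whole range, since *Dio3*+/+ hearts can lie anywhere up to 1.71 RPKM. The log2 difference of −0.49 (standard error 0.33, adjusted *P* = 0.561 by limma) was not larger than this spread. Of all rows averaging between 0.1 and 1 RPKM, 9.76% had a CV of 0.9 or more in *Dio3*+/+ hearts, and the median was 0.31.

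Of the alpha subunit genes, *Scn4a* and *Scn3a* also had a wide spread in *Dio3*+/+ hearts alone. *Scn4a*, the skeletal muscle gene, had 0.23 RPKM (CV 0.70) in *Dio3*+/+ hearts against 0.20 RPKM (0.12) in *Dio3*-/- hearts. *Scn3a*, known from the embryonic brain, had 0.15 RPKM (0.76) and 0.11 RPKM (0.20). Neither difference was larger than the spread, with log2 differences of −0.06 for *Scn4a* (adjusted *P* = 0.869 by limma) and −0.09 for *Scn3a* (adjusted *P* = 0.740 by limma). *Scn1a* was the lowest of the 7 genes, at 0.05 RPKM (0.62) and 0.03 RPKM (0.49), only a few rounding steps above 0, and its log2 difference of −0.05 (95% confidence interval −0.16 to 0.05, adjusted *P* = 0.663 by limma) gives no direction. For *Scn1a* all 4 hearts of each genotype must still have had reads, since a heart at 0 would give a larger CV.

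Skeletal muscle markers were also more variable between *Dio3*+/+ than between *Dio3*-/- hearts. Of 8 such markers, 7 (*Myod1*, *Myog*, *Myf5*, *Myf6*, *Pax7*, *Chrng* and *Chrnd*) had CVs from 1.37 to 1.72 in *Dio3*+/+ hearts, so that for each of them a single heart held at least 72.6% of the sum. Their summed means were 17.4 RPKM in *Dio3*+/+ hearts against 2.11 RPKM in *Dio3*-/- hearts, and none of the 8 passed the test by limma (adjusted *P* between 0.240 and 0.670 over the rows above 0). Whether it was the same heart that was high in *Scn3b*, *Scn4a* and *Scn3a* cannot be read from the table, and the part of skeletal muscle in these values was not tested. *Scn4b* and *Scn10a* had higher means in *Dio3*-/- hearts, and CVs of 0.23 and 0.22 in *Dio3*+/+ hearts.

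**Figure D2:**
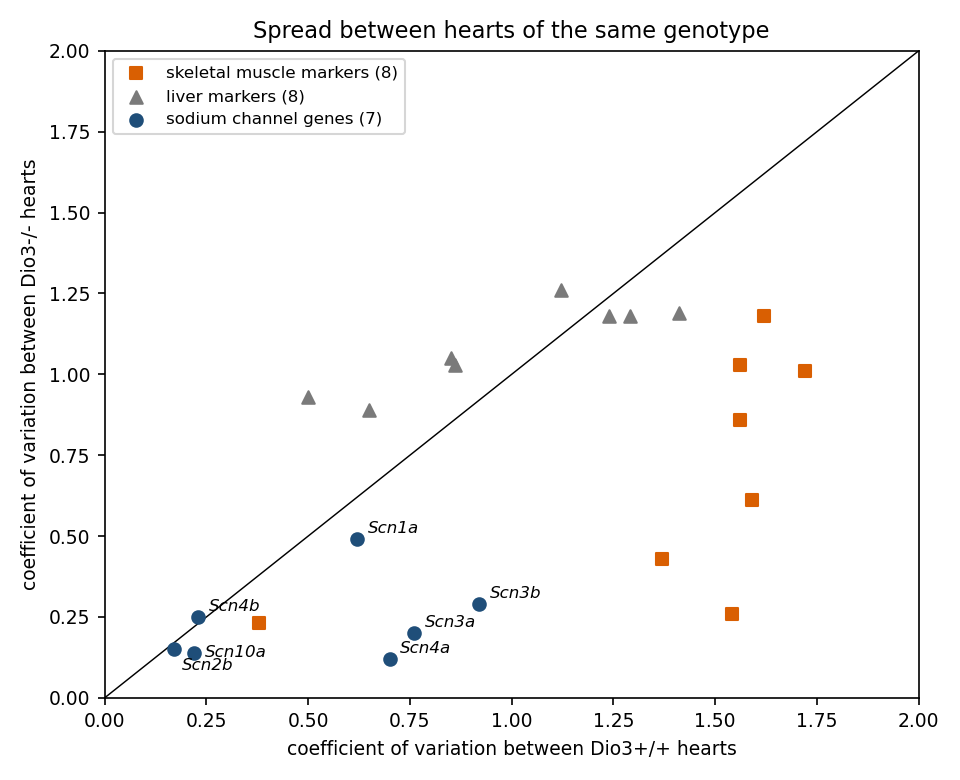
CV between *Dio3*+/+ hearts (horizontal) and between *Dio3*-/- hearts (vertical) for the 7 sodium channel genes (blue), 8 skeletal muscle markers (orange) and 8 liver markers (grey), with a line where they are equal. *Scn3b*, *Scn3a* and *Scn4a* lie far below the line, as do 7 of the 8 skeletal muscle markers (*Actn3* is at 0.38 and 0.23), whereas *Scn4b*, *Scn2b* and *Scn10a* lie near it at 0.25 or less.

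*Scn10a* was the highest of the 7 genes in both genotypes. Its protein carries the slow, tetrodotoxin-resistant sodium current of pain-sensing neurons. The mean was 1.63 RPKM (CV 0.22) in *Dio3*+/+ hearts against 2.36 RPKM (0.14) in *Dio3*-/- hearts, a ratio of 1.45. Single hearts can have reached up to 2.17 RPKM in *Dio3*+/+ fetuses and down to 1.86 RPKM in *Dio3*-/- fetuses, so that an overlap is possible but not certain. The log2 difference was 0.43 (standard error 0.13), with an unadjusted *P* of 0.011 and an adjusted *P* of 0.128 by limma above 1 RPKM, and did not pass. At an unadjusted *P* under 0.05, 15.2% of the genes above 1 RPKM were higher in *Dio3*-/- hearts, so that this value alone does not set *Scn10a* apart. Of the markers of autonomic neurons all 8 were found, 4 with a higher and 4 with a lower mean in *Dio3*-/- hearts, with summed means of 3.30 and 3.42 RPKM, and limma called none of them over the rows above 0 (adjusted *P* from 0.160 to 0.939). *Phox2a*, *Th* and *Dbh*, which help to define these cells, were between 0.12 and 0.23 RPKM in both genotypes, and *Prph*, a neuronal filament gene, was at 0.11 and 0.24 RPKM. The part of neurons in the *Scn10a* values was not tested.

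In 2 of the *Dio3*-/- hearts the later age stands in the age field. From the deposited mean and SD, the average of any 2 of the 4 *Dio3*-/- hearts was at least 0.392 RPKM for *Scn4b* and at least 2.07 RPKM for *Scn10a*, which is above the *Dio3*+/+ means of 0.15 and 1.63 RPKM. These bounds hold for any pair, including the 2 *Dio3*-/- hearts with the same age as the *Dio3*+/+ hearts in every label. For *Scn10a* the bound is below 2.17 RPKM, the highest value possible for a single *Dio3*+/+ heart, and the gene did not pass the test. The part of age in these values was not tested.

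**Figure D3:**
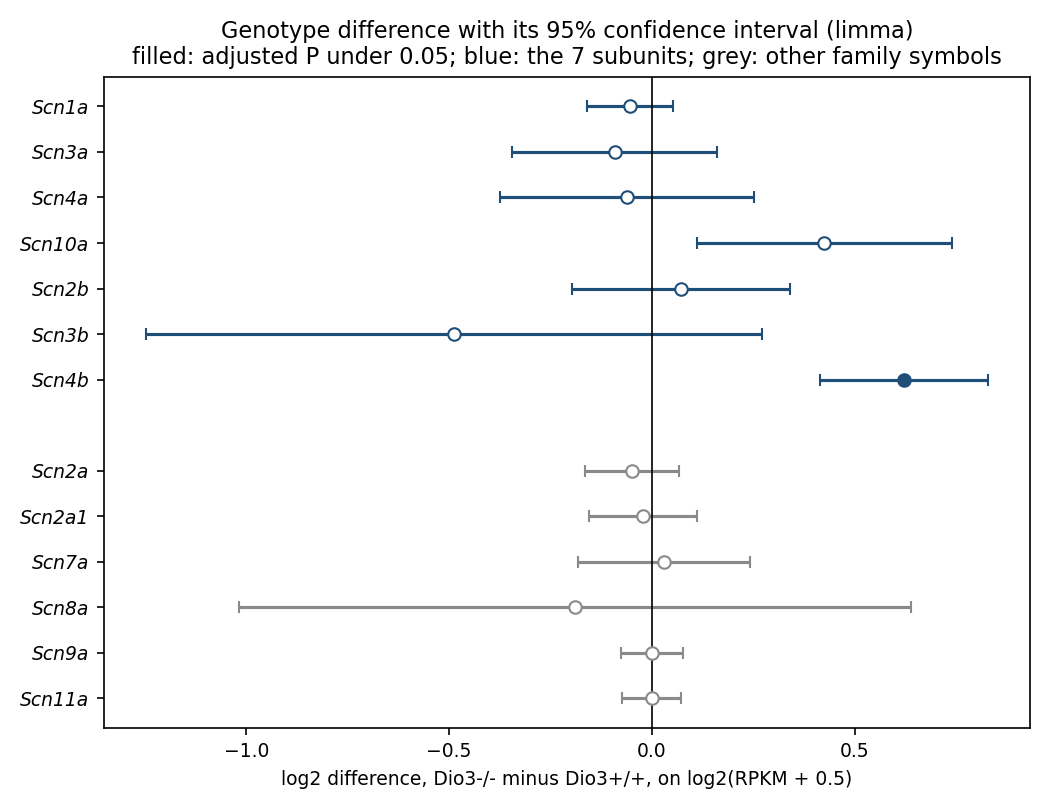
Log2 difference between *Dio3*-/- and *Dio3*+/+ hearts on the log2(RPKM + 0.5) scale for the 7 sodium channel genes (blue) and 6 further family symbols (grey), with 95% confidence intervals by limma over all rows above 0; filled points have an adjusted *P* value under 0.05. *Scn4b* (0.62) is filled, and the intervals of *Scn3b* and *Scn8a* are the widest.

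The other transcript rows of the genes gave the same picture as their highest rows where reads were not scarce. *Scn4b*, *Scn2b* and *Scn4a* have 1 row each. *Scn10a* has 5 rows, which differ widely in level, from 1.63 RPKM in the highest (uc009sbf.1) through 0.66, 0.21 and 0.18 to 0.02 RPKM in *Dio3*+/+ hearts. The first 4 were higher in *Dio3*-/- hearts, by ratios of 1.45, 1.42, 1.24 and 1.33, and the last was lower, at 0.01 RPKM, within the rounding step. No *Scn10a* row passed the test by limma (adjusted *P* from 0.192 to 0.740). All 5 rows of *Scn3b* were lower in *Dio3*-/- hearts, with ratios from 0.438 to 0.523 and CVs from 0.90 to 1.02 in *Dio3*+/+ hearts. Rows of a gene share reads, so that their common direction is not separate evidence. Of the 5 rows of *Scn3a*, 3 were lower and 2 equal, and of the 2 rows of *Scn1a*, 1 was lower and 1 equal. In the lower *Scn1a* row, at 0.01 RPKM in both genotypes, the CV of 2 in *Dio3*+/+ hearts is the value that 4 hearts give when only 1 of them has reads. Over all 20 rows limma called 1, that of *Scn4b*, where 0.876% of all rows above 0 passed.

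**Figure D4:**
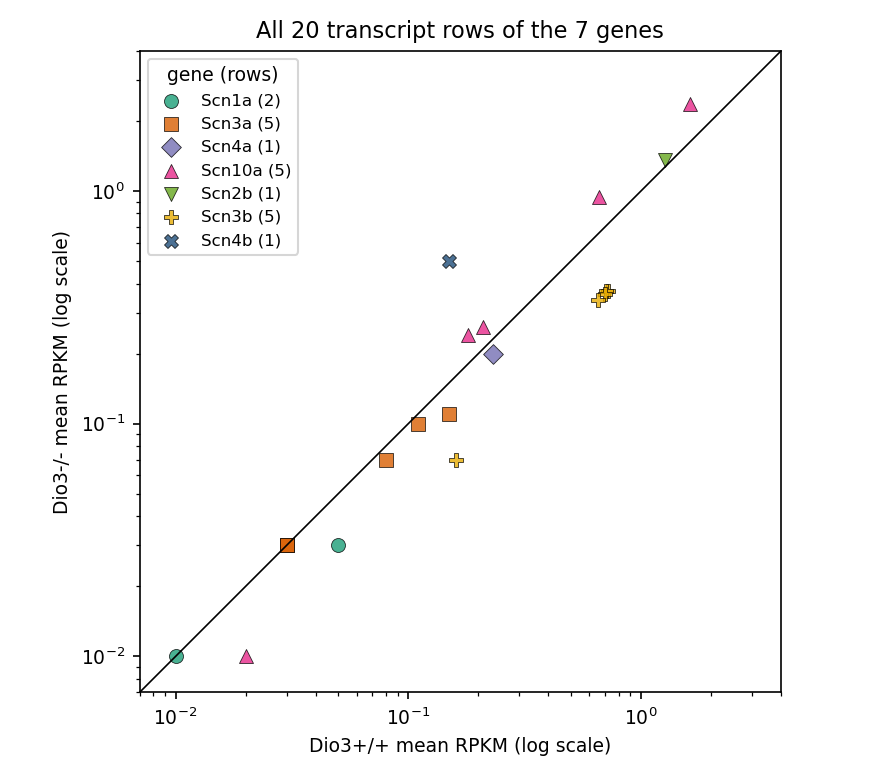
Mean RPKM in *Dio3*+/+ hearts against that in *Dio3*-/- hearts, both on log scales, for all 20 transcript rows of the 7 genes, with a line where both are equal. The *Scn4b* row (0.15 and 0.50 RPKM) is the farthest above the line, 4 of 5 *Scn10a* rows are above it, and the *Scn3b* rows are below.

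Per length, the order of the 7 genes in *Dio3*-/- hearts was *Scn10a*, *Scn2b*, *Scn4b*, *Scn3b*, *Scn4a*, *Scn3a* and *Scn1a*. Neighbors in this order differed by more than the sum of their SDs, except *Scn4b* (0.50 RPKM) and *Scn3b* (0.37 RPKM). In *Dio3*+/+ hearts *Scn3b* and *Scn4a* stood before *Scn4b*, which was level with *Scn3a* at 0.15 RPKM. No neighbors in that order differed by more than the sum of their SDs. The summed mean of the 4 alpha subunit genes examined was 2.06 RPKM in *Dio3*+/+ hearts against 2.70 RPKM in *Dio3*-/- hearts, of which *Scn10a* made up 79.1% and 87.4%. That of the 3 beta subunit genes examined was 2.14 and 2.23 RPKM. Both sums leave out other genes of the family, so these are not shares of all sodium channel RNA in the heart.

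The other alpha subunit genes described here, *Scn2a* (also listed as *Scn2a1*), *Scn7a*, *Scn8a*, *Scn9a* and *Scn11a*, were below 1 RPKM in both genotypes, and none passed the test by limma over the rows above 0. The highest of them was *Scn7a*, at 0.92 RPKM (CV 0.08) and 0.95 RPKM (0.16), with an adjusted *P* of 0.913 by limma. *Scn10a* was above each of them in both genotypes, whereas *Scn9a* and *Scn11a* were as low as *Scn1a*, at 0.02 and 0.03 RPKM in both genotypes.

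Among 18 genes whose proteins bind, anchor or regulate sodium channels, 17 were above 1 RPKM and 3 passed the test by limma as higher in *Dio3*-/- hearts, as did 1.91% of all genes above 1 RPKM. None was lower. *Ank3*, which encodes the ankyrin that anchors sodium channels in the membrane, rose from 21.8 RPKM (CV 0.06) to 29.5 RPKM (0.04), a log2 difference of 0.43 (adjusted *P* = 0.0063 by limma). *Sntb1*, which encodes a syntrophin adaptor of the dystrophin complex, rose from 7.47 RPKM (0.07) to 11.4 RPKM (0.11), a log2 difference of 0.58 (adjusted *P* = 0.0089 by limma). *Fgf12*, which encodes an intracellular fibroblast growth factor homologous factor that binds the tail of the channel, rose from 4.02 RPKM (0.12) to 5.94 RPKM (0.12), a log2 difference of 0.51 (adjusted *P* = 0.038 by limma). With all rows above 0 tested, *Fgf12* no longer passed (adjusted *P* = 0.071 by limma). Over those rows none of the 3 passed Welch's test from the summaries, at an adjusted *P* of 0.081 for *Ank3*, 0.216 for *Sntb1* and 0.228 for *Fgf12*. The highest partner genes were *Ywhah*, with 150 and 149 RPKM in *Dio3*+/+ and *Dio3*-/- hearts, *Camk2d*, with 59.6 and 75.3 RPKM (adjusted *P* = 0.070 by limma), and *Pkp2*, with 55.5 and 63.1 RPKM. The median log2 difference over the 17 genes was 0.18, against 0.04 over all genes above 1 RPKM. The list was chosen with earlier results of these data known, so these comparisons are not a test of the partner genes as a group.

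Among the genes nearest to *Scn4b* in both genotype levels, by distance on the log2(RPKM + 0.5) scale over 2 genotype means, were *H2-Q10* (0.18 and 0.51 RPKM, distance 0.067) and AK145095 (0.17 and 0.46 RPKM, 0.073). Neither passed the test by limma (adjusted *P* of 0.441 and 0.178). In *Dio3*-/- hearts *H2-Q10* had a CV of 0.96, where *Scn4b* had 0.25. Markers of liver were also higher in *Dio3*-/- hearts with a wide spread, with summed means of 16.0 and 108 RPKM over 8 genes and CVs from 0.89 to 1.26 in *Dio3*-/- hearts, and none passed (adjusted *P* from 0.188 to 0.341 by limma over rows above 0). The spread of *Scn4b* between *Dio3*-/- hearts was well below that of each of these markers. The part of liver in the *Scn4b* values was not tested.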

How the data were processed

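The authors aligned the reads with NovoAlign (version 2.08 in the submitters' processing notes), kept uniquely mapping reads and scaled each sample linearly to the smallest one. Neither the genome build nor the use of strand is given in the sources used here. The deposited RPKM values are means over the hearts of a genotype; the header does not name the unit, which was read from the filter in the methods. The deposited coefficient of variation is a ratio of SD to mean. The authors' own fold changes and *q* values were also in the table and were not used. Because only these summaries were given, the SD on the log2 scale was derived from the deposited coefficient of variation, divided by (mean + 0.5) and ln 2 after multiplication with the mean. Variances pooled over both genotypes (6 residual degrees of freedom) were moderated along the mean in limma 3.58.1 under R 4.3.3, and *P* values were adjusted by Benjamini-Hochberg. The fit was also run on simulated hearts, with rows drawn independently and the same CV set for both genotypes. As these data differ in both respects, that run does not show how the fit behaves here. Groups came from the genotype labels. Where nothing tells that hearts came from separate litters, *P* values measure the spread between these hearts only. Python (3.11.15), pandas (2.3.3) and scipy (1.17.1) were used for summaries. The sodium channel genes, the other lists and the tests were chosen with earlier results of these data known. All transcript rows of the 7 genes were described, with further family genes, 18 partner genes, the nearest neighbors on the chromosome, and markers of heart muscle, conduction tissue, neurons, Schwann cells, skeletal muscle and liver. Some genes of these lists are not reported here. Alternatives changed the test, pseudocount, filter, trend, scaling, number of rows per gene and the rounding.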

Additional observations from a re-analysis of the deposited data

How the results depend on the processing

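Over all alternatives, the 7 genes gave 80 values with the direction and the side of the threshold of the reported value and 1 that lost its call, *Scn4b* with Welch's test. The number of sodium channel rows called among rows above 0 was 1 in the reported fit and 0 with Welch's test, which passed 7 rows of the whole table where limma passed 431. At an unadjusted *P* under 0.05, Welch's test gave 3 of the 20 sodium channel rows and 5855 of all 49226 rows. Among rows above 1 RPKM the number of sodium channel rows called by limma was 0, and 1 without a filter, because *Scn4b* is then tested. For *Scn4b* the adjusted *P* went from 0.0070 (after rows with a CV over 0.5 were dropped, added after the data were seen) to 0.248 (Welch's test), and its log2 difference from 0.38 with a pseudocount of 1 to 1.74 with none. Adjusted *P* values of *Scn10a* went from 0.107 to 0.324 over rows above 0. Centring the genotypes on the median log2 difference moved all rows above 1 RPKM by 0.04. Calls over all 32703 rows above 1 RPKM were 703 in the reported fit. They were 394 with centring, 414 with CVs raised by 0.005, 571 with no trend and 62 with Welch's test. With pseudocounts of 0.1 and 1 they were 687 and 705. Other sets of rows gave 431 of 49226 without a filter, 319 of 14657 with 1 row per gene and 811 of 22106 with a mean over both genotypes above 5 RPKM. Over rows above 0 they were 926 without the wide rows and 158 with 1 row per gene, where 24817 rows were tested. Leaving out single hearts could not be run without their values. No paired analysis was possible because the table holds genotype means only, although the labels number the hearts of both genotypes alike. The rounding of the means to 0.01 limits *Scn1a* and the lower rows of *Scn3a* and *Scn10a*.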

Other observations

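Sodium channel genes lie in groups on the chromosomes, and their neighbors in RefSeq were read from the same table. On chromosome 9, *Scn10a* lies next to *Scn11a*, which had 0.03 RPKM in both genotypes. *Exog*, on the other side of *Scn10a* but not directly next to it, had 2.77 RPKM (CV 0.13) and 2.75 RPKM (0.10) in *Dio3*+/+ and *Dio3*-/- hearts. Beyond *Scn11a*, *Wdr48* had 19.8 and 20.8 RPKM, with an adjusted *P* of 0.531 by limma above 1 RPKM. Next to *Scn4b*, *Tmprss4* was listed at 0 in both genotypes, and the gene beyond *Scn2b*, *Jaml* (listed as *Amica1*), had 0.07 RPKM in both. *Scn3a* and *Scn1a* lie on chromosome 2 in a group with *Scn2a*, *Scn9a* and *Scn7a*. Of these, *Scn7a*, whose product is a sodium channel that responds to sodium rather than to voltage, was the highest, at 0.92 RPKM (0.08) and 0.95 RPKM (0.16). Near *Scn3a*, *Csrnp3* had 0.72 RPKM (0.54) and 0.39 RPKM (0.04), a log2 difference of −0.46 with an adjusted *P* of 0.332 by limma.

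Markers of the conduction system, the specialized muscle that carries excitation, showed no call among 8 genes above 1 RPKM by limma, with summed means of 112 and 117 RPKM in *Dio3*+/+ and *Dio3*-/- hearts. *Hcn4*, the pacemaker channel gene, had 9.74 RPKM (0.11) and 11.4 RPKM (0.12), a log2 difference of 0.22 (adjusted *P* = 0.263 by limma). *Tbx3*, a transcription factor of the same tissue, had a CV of 0.77 between *Dio3*+/+ hearts, against 0.15 for *Dio3*-/-. Among 6 Schwann cell and neural crest markers, *Foxd3* and *S100b* had CVs of 1.08 and 1.12 in *Dio3*+/+ hearts, and 5 of the 6 had a lower mean in *Dio3*-/- hearts. None of the 6 passed the test by limma (adjusted *P* between 0.407 and 0.973 over the rows above 0). *Scn8a*, an alpha subunit gene of the nervous system, had the widest spread of the family in *Dio3*+/+ hearts, with a CV of 1.78 in its highest row, so that a single heart held at least 91.5% of its sum of 4 hearts.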
